A study of Mus musculus with 2 samples.

Results

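The genes described here encode the enzymes that add or remove acetyl and methyl marks on chromatin: histone deacetylases (Hdac), sirtuins (Sirt), lysine demethylases (Kdm), lysine acetyltransferases (Kat), TET dioxygenases (Tet) and DNA methyltransferases (Dnmt). They were chosen by current gene symbol from the probe sets that the platform annotation assigns to 1 gene, leaving out Kdm5c, Kdm5d and Kdm6a. This gave 48 of the 18193 named genes, read by 106 of 34945 probe sets. The elicited array held RNA of peritoneal macrophages taken 3 days after an injection of 1 mL of 3% thioglycollate, a sterile irritant, into the cavity. The resident array held RNA of peritoneal macrophages from untreated mice. Both used C57BL/6J mice aged 8 weeks, with no transgene named in the labels, and 2 h of adherence at 37 degrees, whereas the series description speaks of overnight culture. The number of mice pooled per array was not stated in those sources. Each group was 1 array, so values have no replicate error, no test was run, and differences are described against a 2-fold threshold.

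Acetyl groups on histone tails loosen chromatin and recruit bromodomain proteins; acetyltransferases place them, and zinc-dependent deacetylases and NAD-dependent sirtuins take them off. Methyl groups are removed from lysines by flavin-dependent enzymes or by the JmjC family, which like the TET enzymes needs iron, oxygen and 2-oxoglutarate. DNA methyltransferases methylate cytosine and TET enzymes oxidise the methyl group. In macrophages, deacetylase complexes are known to restrain inflammatory genes, and Dnmt3a and Tet2 are known from mutations that expand blood cell clones.

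Signals are linear MAS5 intensities, and 82.2 was taken as the floor, the 95th percentile of olfactory, taste and keratin-associated gene families taken as silent in macrophages. For each array alone that percentile was 67.9 (elicited) and 92.7 (resident). Among the 48 genes, 39 exceeded the floor on both arrays and 4 on the resident array alone, so the ratios of these 4 are bounds; these 43 are called measured. Probe sets of 1 gene differed in log2 ratio with an SD of 0.48 (1.40-fold) over 4465 genes, the only spread that could be measured.

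Most of these enzymes had lower signals on the elicited array, with the DNA methyltransferases Dnmt3a and Dnmt1 as the exceptions past 2-fold. Of 43 measured genes, 2 were at least 2-fold higher (4.65%), against 8.04% of all 11499 measured genes. At least 2-fold lower were 10 (23.3%), against 11.8% of all genes. The log2 ratio was below 0 in 34 of 43, against 51.9% of all genes, and its median was -0.37, against -0.03 for all genes. The 4 bounds could only fall below 0. Among the 39 enzymes exceeding the floor on both arrays, 8 were at least 2-fold lower (20.5%), against 11.1% of all genes. Of these 39, 30 were below 0, against 51.3% of all genes. Scaling changed the split: 3 higher and 7 lower with equal medians or quantile normalization, 3 and 8 with loess, and 1 and 20 when scaled on the spiked hybridisation controls. The matching shares of all genes were 14.3% higher and 7.44% lower with equal medians, 11.02% and 8.01% with quantile, 9.31% and 9.24% with loess, and 4.53% and 20.4% on the controls. The median of all genes was 0.24, 0.16, 0.07 and -0.37 under these 4 scalings, and the enzymes' own median was -0.17, -0.26, -0.34 and -0.72. Below the median of all genes were 34 enzymes as deposited, and 34, 31, 32 and 33 under these scalings. The third higher gene was Sirt2 with equal medians and Sirt6 with quantile or loess.

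**Figure D1:**
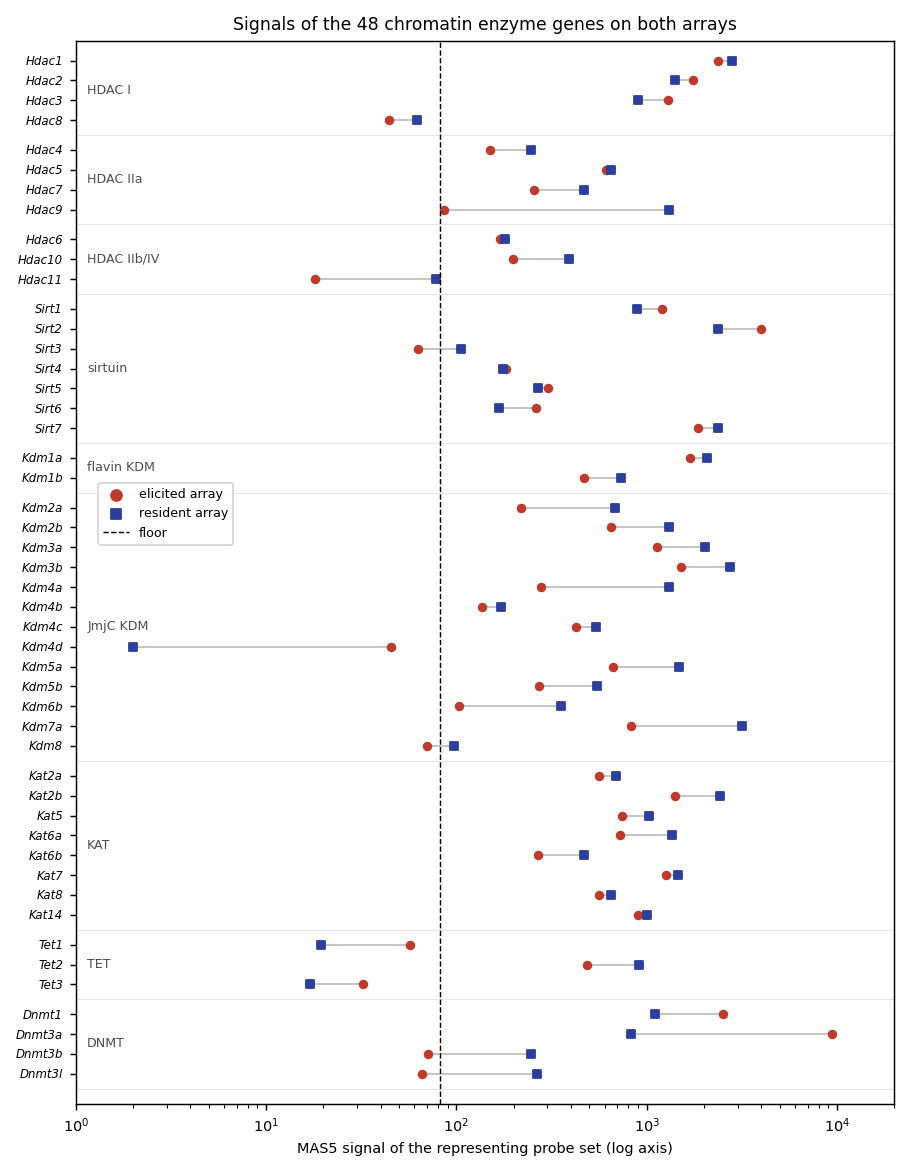
Signals of the 48 genes on a log axis, by enzyme class, with the elicited array as circles, the resident array as squares and the floor of 82.2 as a dashed line; each point is 1 array. The widest gaps above the floor belong to Dnmt3a (9418 on the elicited and 827 on the resident array) and Hdac9 (86.3 elicited and 1307 resident), and 5 genes lie left of the floor on both arrays.

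The DNA methyltransferases were split in direction as measured (median log2 ratio -0.20). Past 2-fold were 2 of 4 upward and 2 downward, against 8.04% and 11.8% of all genes. The 2 downward genes, Dnmt3b and Dnmt3l, counted as measured through their resident signals alone, so their ratios could only fall below 0. Among genes exceeding the floor on both arrays the class had 2 upward and 0 downward, against 7.56% and 11.1% of all genes. Dnmt3a, which sets methylation at new sites, had a signal of 9418 on the elicited and 827 on the resident array, an 11.4-fold difference and the 37th highest ratio of all genes. Its 5 probe sets lay in a pair of ranges. In 3 of them the elicited signals were 9418, 6001 and 3015, against resident signals of 827, 359 and 350, with log2 ratios of 3.51, 4.06 and 3.11. The other 2 had elicited signals of 2802 and 1005, against resident signals of 1691 and 637, with log2 ratios of 0.73 and 0.66. All 5 were thus higher on the elicited array, but by amounts further apart than the SD between probe sets, and the transcript part that each one reads was not used here. Dnmt1, which copies methylation after replication, was 2.27-fold higher (2523 on the elicited and 1111 on the resident array). Its 3 probe sets spanned 1.18 to 1.98 in log2 ratio, so each passed 2-fold. The representing probe set was within 1 probe-set SD of the threshold, and scaling on the hybridisation controls left it at 0.81. Dnmt3b, the second enzyme for new sites, had a signal of 71.2 on the elicited array, at or below the floor, against 245 on the resident array (at least 2.99-fold lower). Its other probe set had 55.96 elicited and 92.7 resident, which gives only a bound of -0.17 because the elicited side is under the floor. Dnmt3l, a cofactor of both without catalytic activity, had 65.9 on the elicited and 266 on the resident array (at least 3.24-fold lower). Both bounds lay within 2-fold with the floor at the 99th percentile of the silent families (174), at -0.49 and -0.61.

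Genes of DNA replication were measured beside Dnmt1, whose protein acts at replication forks. Of 18 measured proliferation genes, 9 were at least 2-fold higher (50%, against 8.04% of all genes), with a median log2 ratio of 0.93. Among the 15 above the floor on both arrays, 7 were at least 2-fold higher, against 7.56% of all genes. Mki67 was the 1 gene at least 2-fold lower (322 on the elicited and 1040 on the resident array), against 11.8% of all genes. Rrm2, a ribonucleotide reductase subunit, was at least 6.70-fold higher (3 probe sets from 1.00 to 2.74 in log2 ratio), the survivin gene Birc5 at least 4.54-fold and the mitotic kinase gene Cdk1 3.56-fold. Uhrf1, which guides Dnmt1 to half-methylated DNA, had a signal of 279 on the elicited and 55.1 on the resident array (at least 3.40-fold higher). Markers of mesothelium and fibroblasts were also at least 2-fold higher, in 9 of 12 measured genes (75%, against 8.04% of all genes). Only 4 of the 12 were above the floor on both arrays, and all 4 were at least 2-fold higher. The rest were above it on the elicited array alone, so their ratios could only be above 0. The part of proliferation or of mesothelium and fibroblasts in the Dnmt1 and Dnmt3a values was not tested.

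Promoter windows are shown for the 4 enzymes furthest from 0 (Hdac9, Dnmt3a, Kdm4a and Kdm7a) and for Dnmt1, the second higher one. They are the 250 bases before a RefSeq start (GRCm38.p6), 5′ to 3′. Capitals mark matches on either strand to any of 8 motifs, which could overlap. The general promoter motifs were the GC box, searched as GGGCGG, the NF-Y element, searched as CCAAT, and the TATA box, searched as TATAAA. The others were the E2F site, searched as TTTNNCGC, the AP-1 site, searched as TGANTCA, and the E-box, searched as CACGTG. The site of PU.1, the lineage factor of macrophages, was searched as GAGGAAG. NF-kappaB sites were searched as GGGRNNYYCC (R for A or G, Y for C or T, N for any base). Both methyltransferase genes have 3 starts, and the windows of up to 2 that do not overlap are given:
Dnmt3a, most upstream start, chr12:3806730-3806979, plus strand: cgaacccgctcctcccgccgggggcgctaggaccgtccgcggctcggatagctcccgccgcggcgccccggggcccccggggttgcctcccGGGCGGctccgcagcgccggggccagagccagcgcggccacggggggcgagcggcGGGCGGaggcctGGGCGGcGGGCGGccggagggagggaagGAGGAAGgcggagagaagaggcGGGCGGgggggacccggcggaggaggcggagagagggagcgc
Dnmt3a, internal start, chr12:3891494-3891743, plus strand: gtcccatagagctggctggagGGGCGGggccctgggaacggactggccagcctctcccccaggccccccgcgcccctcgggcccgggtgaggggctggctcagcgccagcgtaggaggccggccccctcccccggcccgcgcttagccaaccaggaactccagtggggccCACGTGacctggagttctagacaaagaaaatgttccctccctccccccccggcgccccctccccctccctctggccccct
Dnmt1, most upstream start, chr9:20959889-20960138, minus strand: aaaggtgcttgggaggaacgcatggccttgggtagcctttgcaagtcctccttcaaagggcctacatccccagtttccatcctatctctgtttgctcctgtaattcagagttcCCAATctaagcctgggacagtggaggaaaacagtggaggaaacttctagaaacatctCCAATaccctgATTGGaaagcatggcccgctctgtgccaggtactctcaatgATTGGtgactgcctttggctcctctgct
Dnmt1, next start, chr9:20952980-20953229, minus strand: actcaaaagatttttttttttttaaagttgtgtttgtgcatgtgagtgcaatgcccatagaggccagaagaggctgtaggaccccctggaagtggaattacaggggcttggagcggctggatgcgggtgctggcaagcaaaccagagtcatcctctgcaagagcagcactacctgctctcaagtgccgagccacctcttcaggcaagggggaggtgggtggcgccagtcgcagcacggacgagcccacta
The upstream Dnmt3a window held 38 CpG sites, 5 GC boxes and 1 PU.1 match. Its internal window held 15 CpG sites, 1 GC box and 1 E-box. The upstream Dnmt1 window held 2 CpG sites and 4 CCAAT matches, and the next one 7 CpG sites and no match. The array does not tell which start was used.

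Over the most upstream window of each gene, 39 of the 48 enzymes matched the RefSeq table. The median number of CpG sites per window was 14 for these enzymes and 6 for all 27025 genes with a window. In this paragraph "all genes" means these 27025, which include genes not on the array or not measured. No share was computed over the 11499 measured genes, so the enzymes were not set against genes of like expression. A GC box was present in 23 of 39 (59.0%, against 33.0% of all genes) and CCAAT in 18 (46.2%, against 34.5%). PU.1 matches occurred in 6 (15.4%, against 10.4%) and NF-kappaB matches also in 6 (15.4%, against 7.03%). The NF-kappaB motif was broadened after matches had been seen, so its count was not a planned one. E2F, AP-1, E-box and TATA matches each occurred in 2 (5.13%), against 4.40%, 6.85%, 6.04% and 13.0% of all genes. These matches describe the letters of the windows and no binding was measured.

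The JmjC lysine demethylases were lower on the elicited array throughout. All 12 measured members had ratios below 0, against 51.9% of all genes. At least 2-fold lower were 7 (58.3%, against 11.8% of all genes), and the median log2 ratio was -1.01. The sign held for all 12 with equal medians, loess and hybridisation control scaling and for 11 with quantile normalization, where Kdm4b turned to 0.22. Of all genes, 35.7%, 45.6%, 72.1% and 39.7% were below 0 under these scalings, in that order. Below the median of all genes were 12 with equal medians or loess, and 11 with quantile or on the hybridisation controls. The number past 2-fold was 4 with equal medians or quantile, 5 with loess, 9 on the hybridisation controls and 2 when a gene's probe sets were summarised by their median. The matching shares of all genes lower were 7.44%, 8.01%, 9.24%, 20.4% and 11.3%. Kdm4d stayed under the floor, with 45.5 on the elicited and 1.99 on the resident array.

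Kdm4a, which removes repressive methyl marks, had the lowest ratio of the class, with a signal of 279.6 on the elicited and 1310 on the resident array (4.69-fold lower). This rests on 1 probe set, since the other was below the floor on both arrays. Kdm7a, an eraser of repressive marks that reads active ones through a PHD finger, had 823 on the elicited and 3183 on the resident array (3.87-fold lower). Its 3 measured probe sets lay within -1.95 to -1.90, the closest agreement among the lower genes with more than 1. Their windows, each from the gene's single listed start, are shown because these genes had the lowest ratios above the floor among demethylases:
Kdm4a, chr4:118180044-118180293, minus strand: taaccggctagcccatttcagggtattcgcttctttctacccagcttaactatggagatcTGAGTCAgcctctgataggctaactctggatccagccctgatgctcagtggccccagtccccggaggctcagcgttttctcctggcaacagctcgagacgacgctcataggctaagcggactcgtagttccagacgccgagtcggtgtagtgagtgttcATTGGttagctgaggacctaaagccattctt
Kdm7a, chr6:39206774-39207023, minus strand: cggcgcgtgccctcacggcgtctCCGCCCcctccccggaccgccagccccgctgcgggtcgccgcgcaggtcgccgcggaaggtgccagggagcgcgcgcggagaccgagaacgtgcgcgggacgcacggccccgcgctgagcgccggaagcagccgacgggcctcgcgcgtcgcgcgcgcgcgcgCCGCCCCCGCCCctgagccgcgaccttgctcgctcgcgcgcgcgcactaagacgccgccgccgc
The Kdm4a window held 12 CpG sites, 1 AP-1 match and 1 CCAAT match. The Kdm7a window held 56 CpG sites, which equals the highest count in any gene's most upstream window, and 3 GC boxes.

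Kdm6b, the demethylase known to be induced in macrophages by inflammatory stimuli, had a signal of 104 on the elicited and 355 on the resident array (3.42-fold lower). Its second measured probe set had 86.2 elicited and 9.41 resident, a bound of 0.07 after flooring, so the gene rests on 1 dim probe set. Kdm2a, a CpG-binding demethylase, had 218 on the elicited and 683 on the resident array (3.13-fold lower). Its 3 probe sets with both signals over the floor had log2 ratios of -1.65, -1.44 and -0.31, split by the threshold, and another, floored on the elicited array, gave a bound of -0.49. Its relative Kdm2b, a subunit of a Polycomb complex, was 2.01-fold lower (648 elicited and 1303 resident). Kdm5a and Kdm5b, which erase active promoter marks, were 2.22-fold (668 elicited and 1484 resident) and 2.03-fold lower (271 elicited and 550.2 resident). For Kdm5a the 2 probe sets with both signals over the floor had -1.15 and -0.64 and another 2 gave bounds of -0.83 and -0.58, and for Kdm5b the 2 had -1.02 and -0.33. The values of Kdm2b, Kdm5a and Kdm5b were within 1 probe-set SD of the threshold.

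The other JmjC members lay within 2-fold as deposited, and Kdm3a and Kdm3b were at least 2-fold lower on the hybridisation controls. Kdm3a and Kdm3b, erasers of repressive marks, had log2 ratios of -0.83 (1134 on the elicited and 2017 on the resident array) and -0.86 (1506 elicited and 2740 resident). Both were within 1 probe-set SD of the threshold. Kdm4b (-0.34) and Kdm4c (-0.35), relatives of Kdm4a, differed by less than the SD between probe sets. Kdm8, named as a demethylase but also known as a hydroxylase, was at least 1.19-fold lower, with 70.4 on the elicited and 97.7 on the resident array. The flavin-dependent demethylases Kdm1a (1679 elicited and 2062 resident) and Kdm1b (467 elicited and 732 resident) had log2 ratios of -0.30 and -0.65. Kdm1b was within 1 probe-set SD of the threshold and had -1.02 on the hybridisation controls. JmjC proteins with other symbols had a median log2 ratio of -0.06. Of 11, none was at least 2-fold lower, against 11.8% of all genes. The 1 gene at least 2-fold higher, against 8.04% of all genes, was Jmjd4 (2.26-fold, 203 elicited and 90.1 resident). Phf2 (-0.94, with 3 probe sets up to 0.089) and Jmjd1c (-0.53, with 3 down to -1.77) had the next largest ratios of that list.

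Of the TET enzymes, Tet2 alone was above the floor. Its representing probe set had a signal of 484 on the elicited and 907 on the resident array (1.87-fold lower). The other had 271 elicited and 1014 resident, a log2 ratio of -1.90, so both were lower and they differed on the threshold. Their median was -1.40. The representing one was within 1 probe-set SD of the threshold and had -1.28 on the hybridisation controls. Tet1 (57.3 on the elicited and 19.4 on the resident array) and Tet3 (32.1 elicited and 17.1 resident) stayed under the floor.

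**Figure D2:**
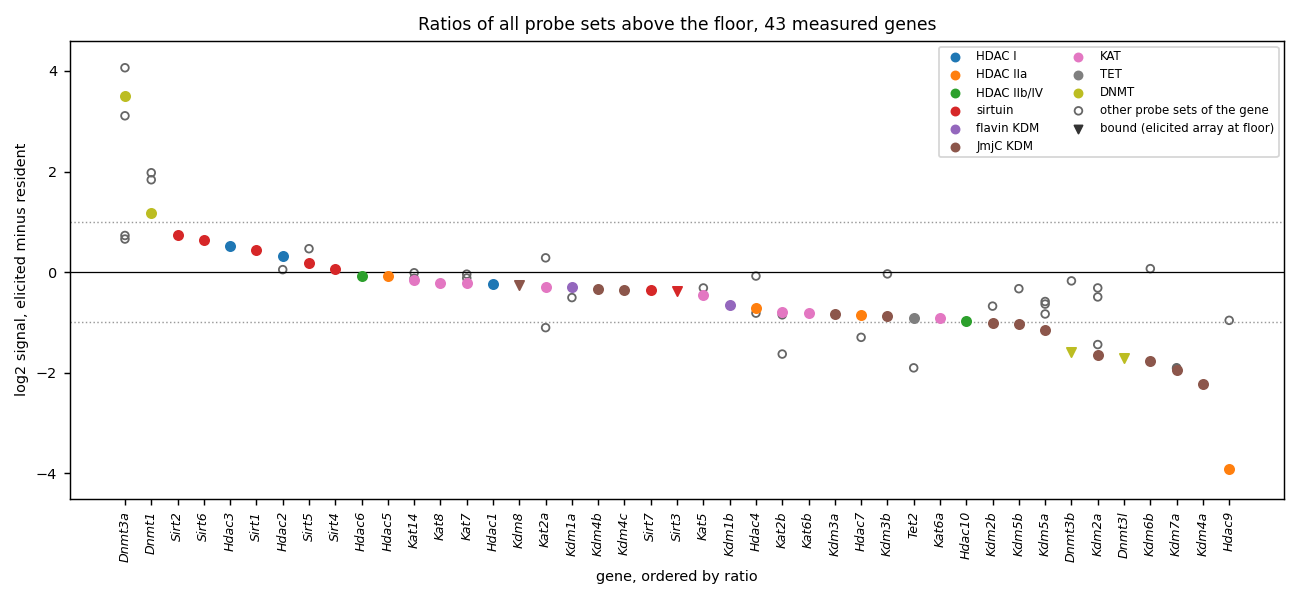
Log2 ratio, elicited minus resident, for each measured gene in order, with the representing probe set as a filled symbol coloured by class, other probe sets above the floor as open circles and bounds as triangles; dotted lines mark 2-fold. The open circles of Dnmt3a reach from 0.66 to 4.06, while those of Kdm7a lie on its filled symbol.

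The class I histone deacetylases, the catalytic cores of corepressor complexes, lay within 2-fold: Hdac1 had 2369 on the elicited and 2795 on the resident array, Hdac2 had 1744 elicited and 1403 resident, and Hdac3 had 1287 elicited and 902 resident. Their log2 ratios were -0.24, 0.31 and 0.51, and Hdac8 (44.4 elicited and 62.2 resident) stayed under the floor. With equal medians all 3 ratios were above 0. Class IIa enzymes are signal-responsive partners of MEF2 factors with weak activity of their own. Their ratios were below 0 in 4 of 4 (median -0.79), against 51.9% of all genes. With equal medians, quantile and loess 3 of 4 were below 0, and Hdac5 turned to 0.23, 0.20 and 0.15. Hdac9 stood furthest, with 86.3 on the elicited and 1307 on the resident array (15.1-fold lower, the 43rd lowest ratio of all genes). The elicited signal was barely above the floor and below the 92.7 of the resident array's silent families, so the fold is uncertain; with the floor at 174 the log2 ratio was -2.91. Its second probe set had 21.0 elicited and 159.7 resident and a log2 ratio of -0.96, which is a bound. Hdac9 has 2 listed starts, shown because it had the lowest ratio of the enzymes:
Hdac9, most upstream start, chr12:34917096-34917345, minus strand: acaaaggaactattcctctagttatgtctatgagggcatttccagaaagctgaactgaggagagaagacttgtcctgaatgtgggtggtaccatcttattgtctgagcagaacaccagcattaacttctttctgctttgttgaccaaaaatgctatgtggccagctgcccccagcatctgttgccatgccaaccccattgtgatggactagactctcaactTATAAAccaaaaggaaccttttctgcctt
Hdac9, internal start, chr12:34528890-34529139, minus strand: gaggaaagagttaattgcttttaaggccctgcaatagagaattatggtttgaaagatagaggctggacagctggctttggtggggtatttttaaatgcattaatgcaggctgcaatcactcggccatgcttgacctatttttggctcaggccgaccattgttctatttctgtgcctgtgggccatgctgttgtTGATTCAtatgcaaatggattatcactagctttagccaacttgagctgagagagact
The upstream window held no CpG site and 1 TATA match, from 29 to 24 bases before the start. The internal window held 2 CpG sites and 1 AP-1 match.

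The remaining deacetylases lay within 2-fold as deposited, but Hdac4, Hdac7 and Hdac10 were within 1 probe-set SD of the threshold. On the hybridisation controls these were at least 2-fold lower, and so was Hdac7 with the median of its probe sets. Hdac7 had 257 on the elicited and 467 on the resident array (log2 ratio -0.86), and its second probe set gave a bound of -1.30. Hdac4 (149.7 elicited and 246 resident, with 3 probe sets from -0.81 to -0.08) and Hdac5 (613 elicited and 648 resident, -0.08) completed class IIa. Classes IIb and IV had a median of -0.53. In class IIb, the tubulin deacetylase gene Hdac6 had 169.9 elicited and 179 resident (-0.08) and Hdac10, a polyamine deacetylase, had 199 elicited and 392 resident (-0.98). Hdac11 of class IV had 18.1 on the elicited and 78.4 on the resident array and was not above the floor.

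Sirtuin ratios were mostly above 0, though none passed 2-fold as deposited. Of 7, 5 had ratios above 0, against 5527 of all 11499 genes, and the median log2 ratio was 0.17. The same 5 of 7 count was found with equal medians, quantile and loess, but 3 of 7 on the hybridisation controls. Of all genes, 35.7%, 39.7%, 45.6% and 72.1% were below 0 under these scalings. Sirt2, a mainly cytoplasmic deacetylase, had 3971 on the elicited and 2380 on the resident array (0.74). The chromatin-bound Sirt6 had 262 elicited and 168 resident (0.64), and the nuclear Sirt1, which restrains NF-kappaB, had 1201 elicited and 891 resident (0.43). Sirt2 and Sirt6 were within 1 probe-set SD of the threshold. The nucleolar Sirt7 had 1859 elicited and 2370 resident (-0.35). Among mitochondrial sirtuins, Sirt4 (182 elicited and 175 resident) and the desuccinylase gene Sirt5 (301 elicited and 267 resident) had 0.05 and 0.17, and Sirt3 was at least 1.29-fold lower (63.2 elicited and 106 resident).

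Lysine acetyltransferases were lower by small amounts. All 8 were measured on both arrays and none passed 2-fold (median -0.38). All 8 ratios were below 0, against 51.9% of all genes. With equal medians 4 of 8 were below 0, with quantile 6 and with loess 7, and on the hybridisation controls 8, of which 3 (Kat2b, Kat6a and Kat6b) were at least 2-fold lower and the median was -0.75. Of all genes, 35.7%, 39.7%, 45.6% and 72.1% were below 0 under these scalings, and 20.4% were at least 2-fold lower on the controls. All 8 enzymes lay below the median of all genes under each of these scalings. The largest ratios belonged to Kat6a and Kat6b, the MYST enzymes MOZ and MORF, at -0.91 (720.3 on the elicited and 1357 on the resident array) and -0.81 (269 elicited and 470.3 resident). Kat2b, known as PCAF, had 1415 elicited and 2434 resident (-0.78), and its other probe sets gave bounds of -1.63 and -0.85. Kat2a, its paralogue GCN5, had -0.29 with probe sets at -1.10 and 0.28, so they point both ways (563 elicited and 690.1 resident for the representing one, 172 elicited and 371 resident, and 297 elicited and 244 resident). Kat5 of the NuA4 complex (-0.46), Kat7 (-0.22), Kat8 of the MSL complex (-0.22) and Kat14 (-0.15) completed the class. Kat6a, Kat6b and Kat2b were within 1 probe-set SD of the threshold.

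**Figure D3:**
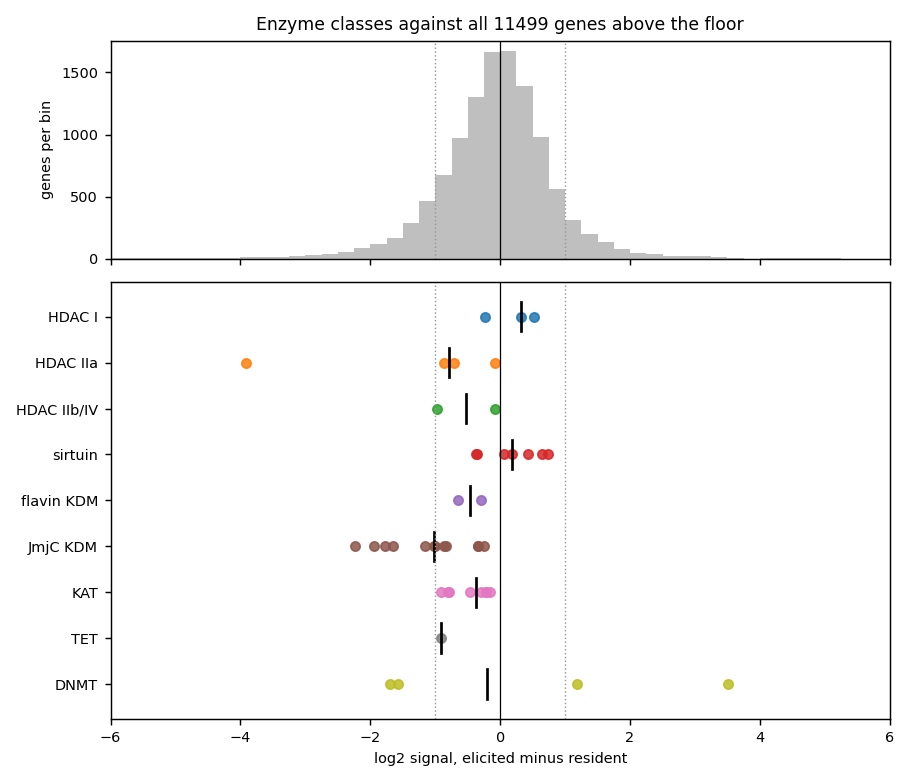
Upper panel, number of genes per bin of log2 ratio (elicited minus resident) for all 11499 measured genes, with values beyond the axis counted in the end bins; lower panel, each measured enzyme by class with the class median as a bar. All JmjC demethylases (12 of 12) and acetyltransferases (8 of 8) lie left of 0 on the deposited scale, against 51.9% of all genes. Kdm8 among the former is a bound. Sirtuins lie on both sides.

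Partners of these enzymes were compared through lists of complex subunits and related writers and readers. Of 25 measured HDAC corepressor subunits, 6 were at least 2-fold lower, against 11.8% of all genes, and none higher, against 8.04%. Their median log2 ratio was -0.14. With equal medians or quantile 2 were lower and 1 higher, with loess 2 and 0, and on the hybridisation controls 7 and 0. The shares of all genes lower and higher were 7.44% and 14.3% with equal medians and 8.01% and 11.02% with quantile. With loess they were 9.24% and 9.31%, and on the hybridisation controls 20.4% and 4.53%. Chd4, the NuRD remodeller, had 501 on the elicited and 1683 on the resident array (3.36-fold lower), followed by the NuRD genes Gatad2b (2.55-fold) and Mta2 (2.29-fold). These folds are of the representing probe sets: the 3 above the floor for Chd4 ran from -1.75 to -0.21 and the 4 for Gatad2b from -1.35 to -0.13, floored ones included. Of 27 other acetyltransferases and subunits, 5 were at least 2-fold lower (18.5%, against 11.8% of all genes) and none higher (against 8.04%). Their median was -0.30. The counts were 1 lower and 1 higher with equal medians, 3 and 2 with quantile, 4 and 1 with loess, and 9 and 0 on the hybridisation controls. The shares of all genes under these scalings were those printed for the corepressor subunits. Trrap, a scaffold shared by Kat2a and Kat5 complexes, had 555 elicited and 1766 resident (3.18-fold lower), followed by Msl1 of the Kat8 complex (2.32-fold) and the coactivator gene Ncoa1 (2.30-fold). The 4 probe sets of Msl1 ran from -2.03 to -0.32.

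Histone methyltransferases oppose the demethylases, and among 30 measured genes 7 were at least 2-fold lower (23.3%) and 3 higher (10%), with a median of -0.68. For this and the following lists, the shares of all genes were 11.8% lower and 8.04% higher. Under other scalings these shares were as given for the corepressor subunits. With equal medians 4 were lower and 3 higher, with quantile or loess 4 and 4, and on the hybridisation controls 16 and 2. Kmt2c (726 elicited and 2522 resident, 3.47-fold) and Kmt2e (1218 elicited and 3840 resident, 3.15-fold), of the MLL family, were lower, and Smyd2 was 3.21-fold higher (872 elicited and 271 resident). The 5 probe sets of Kmt2e ran from -2.09 to -0.22. Among 19 bromodomain and methyl-DNA readers 5 were at least 2-fold lower (26.3%) and 1, Uhrf1, higher (5.26%), with a median of -0.56. With equal medians 1 was lower and 2 higher, with quantile 3 and 2, with loess 4 and 1, and on the hybridisation controls 8 and 1. Mbd4 was 3.50-fold lower on its representing probe set, but its elicited signal of 87.1 was barely above the floor and its 3 probe sets ran from -1.81 to -0.09. Baz2b was 2.28-fold lower, with 4 probe sets from -1.92 to -0.93. Among 19 Polycomb subunits 4 were at least 2-fold lower (21.1%) and none higher (median -0.35). Cbx7 was at least 6.98-fold, Cbx6 3.38-fold and Asxl2 2.81-fold lower. The list's counts were 3 lower and none higher with equal medians, 4 and 1 with quantile, 4 and 0 with loess, and 6 and 0 on the hybridisation controls. The 2 probe sets of Cbx7 ran from -2.80 to -0.87 and the 4 of Asxl2 from -1.49 to -0.06. Of 19 genes that supply NAD, acetyl-CoA, S-adenosylmethionine or 2-oxoglutarate, 4 were at least 2-fold lower and none higher (median 0.02). Under equal medians, quantile and loess the medians of corepressor subunits (0.17, 0.04 and 0.06) and other JmjC proteins (0.24, 0.31 and 0.26) turned above 0. The 4 cofactor genes were the NAD kinase gene Nadk (3.25-fold), the acetyl-CoA synthesis genes Acss2 (3.07-fold) and Acly (2.70-fold, with 3 probe sets from -2.28 to -1.15), and Naprt (2.24-fold).

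**Figure D4:**
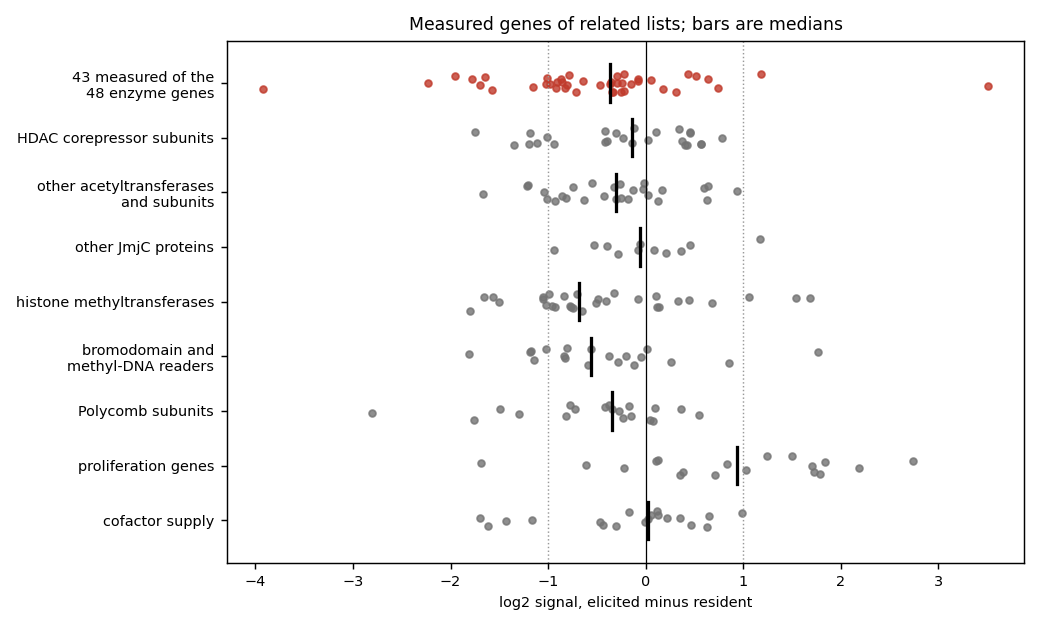
Log2 ratio, elicited minus resident, of the 43 measured enzymes and of the measured genes of 8 related lists; each point is 1 gene, bars are list medians and dotted lines mark 2-fold. The medians run from -0.68 for histone methyltransferases to 0.93 for proliferation genes.

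The macrophage genes Csf1r and Cd68 were bright on both arrays. Csf1r had 32074 on the elicited and 36845 on the resident array, with 3 probe sets from -1.76 to -0.20 in log2 ratio. Cd68 had 40130 on the elicited and 22834 on the resident array. Other markers differed, and fewer cells of a type cannot be told apart from less RNA per cell. For the marker counts that follow, the shares of all genes were 8.04% at least 2-fold higher and 11.8% lower. Of 9 pan-macrophage genes 1 was at least 2-fold higher and 3 lower (Cd163, Itgam and Cd14). Resident macrophage markers were lower by at least 2-fold in 8 of 10 measured genes, led by Alox15, Timd4 and F5, whose ratios are bounds. Of these 10, 7 were above the floor on both arrays. Summed B cell marker signals were 5005 on the elicited and 25325 on the resident array, with 9 of 11 genes lower, led by Ighm (4 probe sets from -5.66 to -0.29), Ms4a1 and Fcmr. Most of the elicited sum was Cd22, with 4078 on the elicited and 2269 on the resident array; without it the sums were 927 elicited and 23056 resident. T cell sums were 552 on the elicited and 871 on the resident array, with Cd3d and Cd3g lower, Cd28 higher, and Cd3e and Cd4 under the floor; without Cd28 the sums were 231 elicited and 759 resident. Mast cell sums were 114 on the elicited and 2555 on the resident array, with 5 of 6 lower, led by Cpa3, Cma1 and Mcpt4. Dendritic cell sums were 184 on the elicited and 1508 on the resident array, with Cd209a, Ccr7 and Dpp4 lower. No mast or dendritic cell marker was above the floor on the elicited array, so the ratios of those measured could only fall below 0. Neutrophil sums were 8205 on the elicited and 11892 on the resident array, with Csf3r and Mmp8 lower and S100a8 within 2-fold. Without S100a8 the sums were 3530 elicited and 8228 resident. S100a9, Cxcr2 and the granule genes Mpo, Elane, Ltf and Ngp were under the floor. Eosinophil sums were 1071 on the elicited and 446 on the resident array, with Siglecf higher, Il5ra within 2-fold, and Prg2 and Epx under the floor; without Siglecf they were 57.0 elicited and 124 resident. Mesothelial and fibroblast sums were 16645 on the elicited and 741 on the resident array, with 9 of 12 higher, led by Sparc, Col1a2 and Col3a1, and Msln under the floor. Of these 12, 4 were above the floor on both arrays. The 3 probe sets of Sparc ran from 0.59 to 5.50 and the 2 of Col3a1 from 2.52 to 4.79. The part of any of these cell types in the enzyme values was not tested. In actin probe sets, signal at the 3′ end over the 5′ end was 1.22 on the elicited and 1.19 on the resident array; for Gapdh it was 0.5999 elicited and 0.587 resident.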

How the data were processed

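RNA of 1 elicited and 1 resident macrophage preparation was measured on an Affymetrix 3′ expression array. The authors deposited linear signal intensities for 45101 probe sets per array, using MAS5 per the submitters' processing notes, with no version stated. Trimming 2% at each end gave a mean of 500.0 on both arrays, and no further scaling was applied for the values in the report.

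The platform annotation named the probe sets, and gene IDs gave current symbols from RefSeq GRCm38.p6 (34741 matched, 204 kept an older symbol). Probe sets with several genes (932), none (9160) or array controls (64) were left out. The floor was the 95th percentile of 252 values of olfactory, vomeronasal, bitter taste receptor and keratin-associated genes. Lower signals were raised to it, so that ratios with a floored side are bounds, printed as "at least" or named as bounds. A gene's representing probe set was that with the highest mean log2 signal, and all probe sets above the floor are given for enzymes where they span at least 1 in log2 ratio, and the range for such genes of related lists. Each ratio between arrays was taken within 1 probe set. Levels of different probe sets were compared to choose representing probe sets and brightest genes, and were added in the marker sums.

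Genes at least 2-fold apart, the 10 largest ratios and the brightest gene of each class are printed with both signals, together with up to 3 genes of each related list, the largest by absolute ratio. Further genes are named to account for every member. The members, classes and lists were chosen with earlier results of these data known. The calculations were tested on simulated data. There were 12 alternatives for scaling, floor, probe set and filter. Python 3.11.15, numpy 2.4.6, pandas 2.3.3 and statsmodels 0.14.6 were used. A broader NF-kappaB consensus replaced the first one searched, after matches had been seen. Precision is limited by there being 1 array a group.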

Additional observations from a re-analysis of the deposited data

How the results depend on the processing

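No enzyme ratio that was at least 2-fold changed sign under the 12 alternatives. The count of enzymes at least 2-fold higher became 1 on the hybridisation controls, whose 9 probe sets were all brighter on the elicited array (by 1.29-fold). The count lower became 20 there, and 6 with the median of each gene's probe sets. For all genes, 1701 were higher and 887 lower with equal medians, and 505 and 2273 on the hybridisation controls. The median of class IIa deacetylases was -0.30 and that of classes IIb and IV -0.028 with quantile normalization. The TET median was -1.40 with the median of probe sets, resting on Tet2 alone, whose probe sets had -0.91 and -1.90. Without a filter on dim genes it rested on 3 genes and was 0.00, since Tet1 and Tet3 entered at 0. The methyltransferase median was 0.35 with the floor at the 99th percentile, 0.48 with the median of probe sets and 2.35 for genes above the floor on both arrays. That last value comes from the fewer genes tested. The 0.35 follows from the Dnmt3b and Dnmt3l bounds of -0.49 and -0.61 at that floor. The 0.48 follows from the other probe sets of Dnmt1 and Dnmt3b. The cause of the changes in classes IIa, IIb and IV was not tested. Of 516 single-gene values under alternatives, 496 moved by less than the probe-set SD of 0.48. Many of them could not move, so this count does not measure how stable the ratios are. The filters leave every ratio unchanged, and probe set choices cannot change a gene with 1 probe set. Another floor leaves a gene unchanged when both its signals exceed it. No paired analysis was possible because each group has 1 array, and for the same reason no array could be left out. Signals near the floor limit Hdac9, Kdm6b and the 4 bounds.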
